A study of Mus musculus with 18 samples.

Results

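The comparison described here set G1E-ER4 cells after 7 h of estradiol against the same cells before estradiol (0 h). Its members were the 6 arrays labelled for these 2 times, 3 at 7 h (A, B and C) and 3 at 0 h (A, B and C), out of 18 arrays in the series, with all 12422 probe sets that are not controls. G1E is a mouse erythroid line grown from embryonic stem cells in which the Gata-1 gene had been disrupted. The ER4 cells are 1 subclone of it that carries Gata-1-ER, a Gata-1 protein joined to the estradiol-binding part of the estrogen receptor. Both groups share the disrupted gene and the fusion, and differ in estradiol and in time in culture. The other 12 arrays held cells at 3, 14, 21 and 30 h, and none held estradiol-treated cells without the fusion or untreated cells kept for 7 h, so the effects of Gata-1-ER, of estradiol itself and of culture time cannot be told apart. The labels call A, B and C biological replicas.

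Gata-1 is the zinc finger transcription factor that red cell precursors need to mature. It binds DNA at sites with the letters GATA, activates genes of heme synthesis, globins and the red cell membrane, and with its partner Fog-1 (encoded by Zfpm1) and corepressors shuts down progenitor genes such as Gata2. Erythroid precursors that lack it stop at an early stage. In mature red cells the membrane rests on a skeleton of spectrin, ankyrin, adducin and dematin, and heme is made partly in mitochondria and partly in the cytosol.

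Each array is an Affymetrix MG-U74Av2 chip, on which several short oligonucleotides, together called a probe set, read a transcript. The deposited values are linear signals, scaled so that the trimmed mean of each of the 6 arrays lay between 150.097 and 150.110. Pearson's r of log2 signals across probe sets was 0.963 to 0.967 within 7 h, 0.969 to 0.971 within 0 h, and 0.953 to 0.960 between the times, and no 2 arrays were identical. The 3′ to 5′ ratios of the control probes, a sign of RNA quality, overlapped between 7 h and 0 h for Gapdh (0.921 to 1.08, against 0.921 to 1.04) and for actin (1.30 to 1.55, against 1.19 to 2.04). The transferrin receptor control gave 3.19 to 7.13 at 7 h and 3.54 to 3.65 at 0 h, with the highest ratio on array 7 h C. Of the erythroid markers chosen, Klf1, Epor, Tfrc, Zfpm1 and the alpha globin Hba-a1 had signals of at least 569 on all 6 arrays, and Gata1 had 157 to 269. Other erythroid genes given below, such as Slc4a1 and Fech, were dim at both times. The number of arrays limits the precision of every value below.

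At 7 h the cytokine receptor chain gene Csf2rb rose most, members of the heme, red cell membrane and erythroid factor lists were among the genes called higher, and members of the progenitor and ribosome biogenesis lists among those called lower. In the limma test, which adds 16 to each signal and compares quantile-normalized log2 values, 518 of 12422 probe sets (4.17%) had a Benjamini-Hochberg adjusted p below 0.05 and are called changed. Of these, 308 (2.48%) were higher and 210 (1.69%) lower at 7 h. At an unadjusted p below 0.05 there were 1713. The median log2 change was 0.94 among the higher and -0.87 among the lower, so a typical called change was a little under 2-fold. At least 2-fold were 143 of the higher and 75 of the lower, and at least 4-fold 13 and 7. The higher probe sets had a median signal of 484 at 7 h and 248 at 0 h, the lower ones 248 at 7 h and 469 at 0 h, and all probe sets 43.8 at 7 h and 43.0 at 0 h. Calls were therefore mostly made well above the dim part of the array. The 7 h arrays lay wholly above or below the 0 h arrays in 305 of the 308 and in 209 of the 210, as they did in 2394 of all probe sets (19.3%). Taking for each gene the probe set with the highest mean signal, 439 of 8251 genes were called (5.32%), 265 higher (3.21%) and 174 lower (2.11%). No gene was called in both directions. The count of lower probe sets was 106 without array 0 h C, 118 without 7 h B, 129 without 0 h B and 135 without 7 h C. With arrays scaled to a common median in place of quantile normalization, 194 probe sets were higher and 126 lower. With the 6 compared arrays alone in the fit they were 194 and 147.

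**Figure D1:**
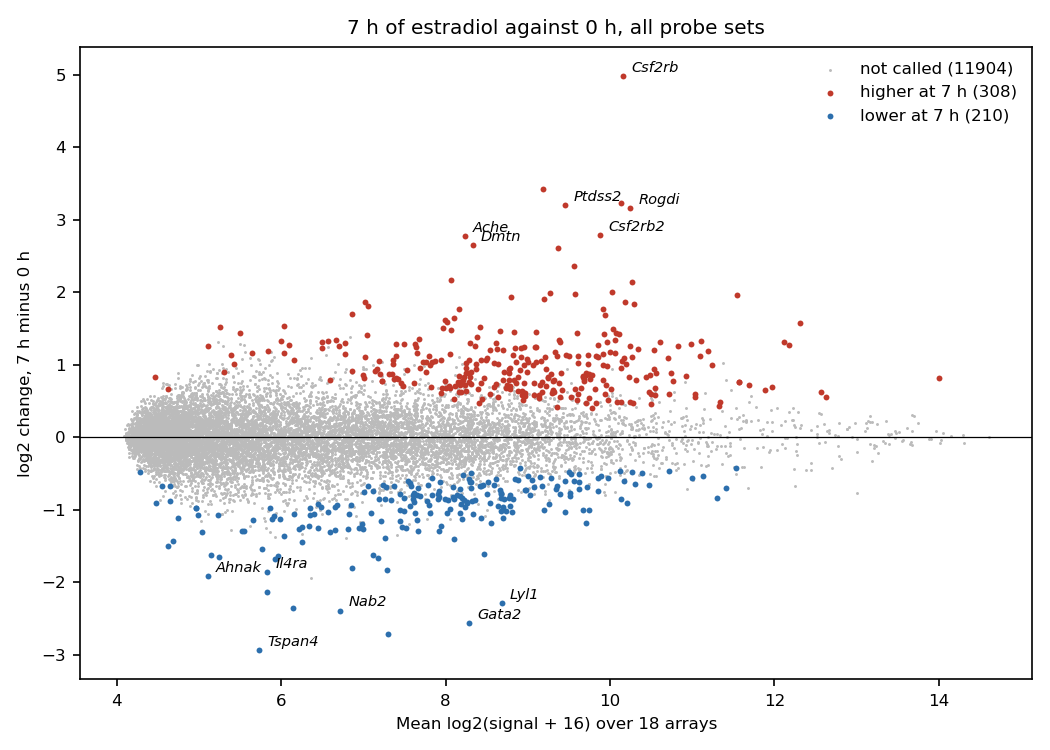
Each point is 1 probe set: the x axis gives its mean log2(signal + 16) over the 18 arrays and the y axis its log2 change, 7 h minus 0 h. Red points are the 308 called higher at 7 h, blue points the 210 called lower and grey points the 11904 not called; the 6 largest named rises and falls carry their symbols, from Csf2rb at 4.98 to Tspan4 at -2.94.

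The largest rise was that of Csf2rb, the receptor chain shared by interleukin 3, interleukin 5 and GM-CSF, with signals of 1968, 1600.4 and 831 on the 7 h arrays A, B and C, against 55.2, 18 and 23.1 on the 0 h arrays. Every array at 7 h lay far above those at 0 h, with 7 h C the lowest of its group. Its log2 change, 7 h minus 0 h, which is what stands in parentheses after signals from here on, was 4.98 (SE 0.32, adjusted p = 1.28e-08). Csf2rb2, the interleukin 3 receptor chain of the mouse and nearly identical in sequence, had 902, 538 and 267 at 7 h, against 79.6, 61.6 and 45.3 at 0 h (2.79, adjusted p = 1.62e-05). It showed the same order of arrays at 7 h, and the probes of the pair may read both transcripts. A second Csf2rb2 probe set was very dim (3.4 to 6.4 at 7 h and 2.8 to 12.8 at 0 h) and not called (-0.05, adjusted p = 0.969). Ptdss2, an enzyme that makes phosphatidylserine, had 835, 1002 and 921 at 7 h, against 105, 81.5 and 84.5 at 0 h. The arrays of each time were close together, with a log2 change of 3.20 (SE 0.12) and the lowest adjusted p of those named (3.63e-12). Pfkm, the muscle form of phosphofructokinase in glycolysis, had 1120, 1099 and 1264 at 7 h, against 185, 161 and 223 at 0 h (2.60, adjusted p = 3.06e-08). Its 7 h arrays agreed within a narrow range. Hebp1, which binds heme in the cytosol, had 540.2, 752 and 741 at 7 h, against 143, 107 and 115 at 0 h (2.36), and Rogdi, a leucine zipper gene, 1009.8, 1553 and 1032 at 7 h, against 110.1, 141 and 126.5 at 0 h (3.16).

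Further down the ranking, Btg2, an antiproliferative gene, had 1334, 1319 and 1109 at 7 h, against 259, 259.6 and 356 at 0 h (2.14, adjusted p = 5.93e-06). St3gal5, which makes the ganglioside GM3, had 1121, 1114.5 and 1025 at 7 h, against 275, 244 and 307 at 0 h (2.01). The arrays of the times were apart in both genes, as the choice of the largest rises and falls required. Sun2, which links the nuclear envelope to the cytoskeleton, stood at a mean of 587 at 7 h and 153 at 0 h (1.90), and Tbc1d15, a GTPase activator of Rab7 in vesicle traffic, at 521 at 7 h and 129.7 at 0 h (1.94). A second Tbc1d15 probe set was also called (1.30). Uhrf1bp1 had a log2 change of 1.98 and Wdr92 one of 1.96. Il4, the cytokine interleukin 4, is read by 4 probe sets, of which 1 had 842, 705 and 844 at 7 h, against 299, 159 and 158 at 0 h (1.99). Another was called at 1.34, and the remaining ones were not (0.22, adjusted p = 0.757, and 0.42, adjusted p = 0.625), so which transcript was read is uncertain. The names of the probe sets of Il4 and St3gal5 end in letters that mark probes which may read related transcripts, as do those given below for Lyl1, Alas2, Ank1, Rhag, Ptpn6, Map2k3, Plk1, Nop58, Myb, Fech, Cpox, Tfrc, Dck, H2-K2, Nomo1, Chd4, Vamp8 and Mtm1.

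**Figure D2:**
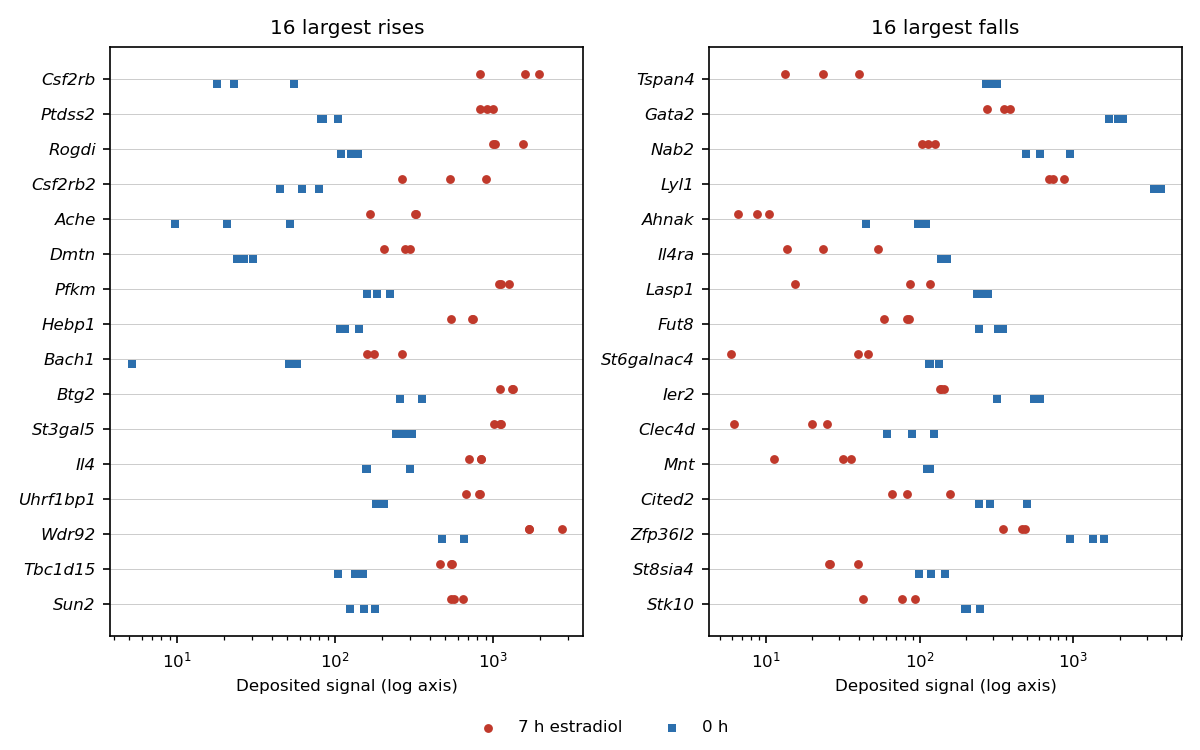
Each point is the deposited signal of 1 array, on a log axis, for the 16 largest called rises (left) and the 16 largest called falls (right) at 7 h. Red circles are the 3 arrays at 7 h and blue squares the 3 at 0 h. Only genes whose red and blue points do not overlap were eligible, so their separation follows from the choice. Lasp1 (15.4 to 116 at 7 h) and Bach1 (5.2 to 57.6 at 0 h) spread widely within a time.

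Since Gata-1 binds GATA sites, the 250 bases before the start of each gene were read from RefSeq promoters (GRCm38.p6, the first start listed for a gene) and searched on both strands for AGATAA or its variant AGATAG, and for TGATAA or its variant TGATAG. At least 1 of these was found in 42 of 223 genes called higher (18.8%), in 26 of 140 called lower (18.6%) and in 1169 of 6213 not called (18.8%). Over all 6576 measured genes with a promoter the share was also 18.8%, so the called genes did not hold these letters more often in this window; in the whole RefSeq table it was 27.1%. The promoters of 5 genes called higher and 1 called lower (the last) that hold a match, chosen after the matches were seen, are given to show where the letters lie; capitals mark the match, where TTATCA is the motif TGATAA on the other strand and TTATCT is likewise AGATAA. Alas2 (chrX:150547167-150547416, plus strand) has it 86 bases before the start, Klf1 (chr8:84901732-84901981, plus) 80, Gfi1b (chr2:28621983-28622232, minus) 120 and Ptdss2 (chr7:141131036-141131285, plus) 145. Pfkm (chr15:98092339-98092588, plus) has 3, at 97, 70 and 44 bases, and Cbfa2t3 (chr8:122699110-122699359, minus) has 1 at 118.
Alas2: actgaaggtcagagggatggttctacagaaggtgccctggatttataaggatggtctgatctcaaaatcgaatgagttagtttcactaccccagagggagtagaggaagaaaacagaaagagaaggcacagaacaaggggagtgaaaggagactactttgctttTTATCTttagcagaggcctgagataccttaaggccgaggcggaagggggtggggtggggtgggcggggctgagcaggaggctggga
Klf1: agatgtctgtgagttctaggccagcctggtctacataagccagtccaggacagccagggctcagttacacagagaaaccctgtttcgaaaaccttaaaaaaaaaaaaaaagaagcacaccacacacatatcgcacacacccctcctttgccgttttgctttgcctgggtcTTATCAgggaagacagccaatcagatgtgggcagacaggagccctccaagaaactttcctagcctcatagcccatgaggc
Gfi1b: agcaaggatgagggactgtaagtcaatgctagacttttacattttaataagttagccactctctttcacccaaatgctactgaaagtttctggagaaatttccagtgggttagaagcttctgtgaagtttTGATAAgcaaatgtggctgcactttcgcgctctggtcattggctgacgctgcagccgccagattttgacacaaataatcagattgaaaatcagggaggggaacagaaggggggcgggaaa
Ptdss2: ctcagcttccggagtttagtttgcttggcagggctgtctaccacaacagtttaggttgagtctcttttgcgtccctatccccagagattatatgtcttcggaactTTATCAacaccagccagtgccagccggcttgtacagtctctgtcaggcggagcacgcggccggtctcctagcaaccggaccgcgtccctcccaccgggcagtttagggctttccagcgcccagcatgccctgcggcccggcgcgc
Pfkm: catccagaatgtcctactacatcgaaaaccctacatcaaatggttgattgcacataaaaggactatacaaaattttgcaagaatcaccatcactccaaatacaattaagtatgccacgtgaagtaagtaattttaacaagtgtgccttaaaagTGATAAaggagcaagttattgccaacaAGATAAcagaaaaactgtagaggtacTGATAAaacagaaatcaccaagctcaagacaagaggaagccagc
Cbfa2t3: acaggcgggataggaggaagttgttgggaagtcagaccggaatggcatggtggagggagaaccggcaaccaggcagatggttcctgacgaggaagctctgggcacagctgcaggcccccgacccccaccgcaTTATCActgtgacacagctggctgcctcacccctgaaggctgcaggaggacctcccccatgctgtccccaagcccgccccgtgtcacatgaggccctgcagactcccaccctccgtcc

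Among the falls, Tspan4, a tetraspanin of the cell membrane, had signals of 23.6, 13.3 and 40.4 at 7 h, against 318.5, 299.6 and 269 at 0 h (-2.94, SE 0.26, adjusted p = 6.25e-07). Every 7 h array was below the median of all probe sets, and every 0 h array well above it. Nab2, a corepressor of the Egr factors, had 127, 103 and 113 at 7 h, against 603, 490 and 949 at 0 h (-2.39, adjusted p = 8.73e-05). Ier2, an immediate early gene, had 135, 144 and 138 at 7 h, against 318, 551 and 602 at 0 h (-1.66). In both genes the 7 h arrays were close together and the 0 h arrays spread more widely. Zfp36l2, an RNA-binding protein that promotes decay of messages and is known to hold early erythroid progenitors in self-renewal, had 347, 459.9 and 482 at 7 h, against 947, 1571 and 1351 at 0 h (-1.61, adjusted p = 3.11e-05). Its 3 arrays at 7 h were all below those at 0 h, as its choice among the largest falls required. Another Zfp36l2 probe set of appreciable signal was not called (-0.33, adjusted p = 0.363).

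Fut8, which adds the core fucose of glycoproteins, had 85.8, 58.8 and 83 at 7 h, against 243, 349.8 and 324 at 0 h (-1.80, adjusted p = 3.11e-05), and St8sia4, which builds polysialic acid, 39.5, 25.6 and 26 at 7 h, against 147, 119 and 98.7 at 0 h (-1.54). Neither gene had overlapping arrays, which the choice of the largest falls required. St6galnac4, a sialyltransferase, stood at -1.68 (adjusted p = 0.0369) and rested on array 7 h C at 5.9: without it the change was -1.23 (adjusted p = 0.201), and without 7 h B or any 0 h array its adjusted p was 0.0503 to 0.118. Ahnak, a giant scaffold protein of the membrane, had 6.6, 10.4 and 8.7 at 7 h, against 110.1, 44.7 and 98.2 at 0 h (-1.91). Its 7 h signals were very low, and the change was -0.97 with 64 added in place of 16 and -3.01 with 1 added. By the same measure St8sia4 stood at -0.95 and -1.95, and St6galnac4 at -0.98 and -2.33 (adjusted p = 0.0694). Lasp1, an actin-binding protein, had 116, 86.2 and 15.4 at 7 h, against 263, 280.4 and 235 at 0 h (-1.83), with array 7 h C far below the other two. A second Lasp1 probe set did not follow it (0.49, adjusted p = 0.786). Cited2, which binds the coactivators CBP and p300, stood at a mean of 102 at 7 h and 344 at 0 h (-1.62), and Stk10, a serine/threonine kinase of blood cells, at 71.1 at 7 h and 215 at 0 h (-1.44). Leaving out 0 h A (adjusted p = 0.0501) or 7 h A (0.0614) ended the Stk10 call.

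Gata1 itself had 165, 221 and 207 at 7 h, against 201, 157 and 269 at 0 h, with overlapping arrays and no call (-0.05, adjusted p = 0.969). Its second probe set had 108, 156.5 and 127 at 7 h, against 132, 111 and 96.6 at 0 h (0.19, adjusted p = 0.764). Whether these probes read the fusion transcript or the disrupted gene was not tested. Gata2, the Gata factor of stem and progenitor cells, had 352, 274.5 and 389 at 7 h, against 2092, 1939.7 and 1696 at 0 h (-2.56, SE 0.23, adjusted p = 9.07e-07). The lowest 0 h array was more than 4 times the highest at 7 h. Its other probe set was dim at both times (1.5 to 16.2 at 7 h and 1.9 to 17.3 at 0 h).

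The gene lists used from here on were chosen with earlier results of these data known, so their counts describe the lists and do not test them. Of 18 measured regulators of progenitors, 4 were called, all lower, with a median over the list of -0.10, against 2.11% lower and 3.21% higher of all 8251 genes, whose median was -0.01. Beside Gata2 these were Lyl1, a close relative of Tal1, Cbfa2t3, the corepressor Eto2 of Tal1 complexes, and Adgrg1, an adhesion receptor of stem cells. Lyl1 had 738, 863 and 693 at 7 h, against 3690.2, 3478 and 3348.5 at 0 h (-2.29, adjusted p = 1.32e-07), and its second probe set was called too (-2.72). Cbfa2t3 had 141, 134 and 135 at 7 h, against 423, 300.4 and 329 at 0 h (-1.25, adjusted p = 0.000193). In both genes the arrays of each time were close together and far from the other time. Adgrg1 had 314, 342 and 475.5 at 7 h, against 792, 711 and 924 at 0 h (-1.12, adjusted p = 0.00925), which leaving out 0 h C (-1.03, adjusted p = 0.0524) or 7 h A (-0.99 and 0.0507) ended. Other members were not called: Myb, which keeps progenitors dividing, averaged 682 at 7 h and 1346 at 0 h (-1.01, adjusted p = 0.0596), Kit, the receptor of stem cell factor, 286 at 7 h and 447 at 0 h (-0.66, with adjusted p = 0.464), and Spi1, a Gata-1 antagonist, 140.4 at 7 h and 157 at 0 h (-0.12). Myb was called lower with the replicate letter as a block (adjusted p = 0.0287), the compared arrays alone (0.0139) or 64 added (0.00101). Weighting the arrays (0.0364) or leaving out the dimmest probe sets (0.0374) also gave the Myb call. Median scaling and leaving out single arrays did not.

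Of 19 erythroid transcription factors 7 were called higher and 1 lower, with a median of 0.39. Zfpm1, which encodes Fog-1, had 4916, 4505 and 4634.5 at 7 h, against 1756, 1668 and 2254 at 0 h (1.28, SE 0.15, adjusted p = 1.53e-05). Klf1, an activator of adult beta globin, had 2272, 3033 and 2726 at 7 h, against 1283, 1384 and 1240.5 at 0 h (0.997, adjusted p = 1.38e-05), and Gfi1b, a repressor needed by erythroid and megakaryocyte cells, 1810.4, 1687 and 1526 at 7 h, against 643, 725 and 683 at 0 h (1.32, adjusted p = 3.19e-05). All 3 genes were already well expressed at 0 h, and their arrays did not overlap between the times. Lmo2, the bridge of the Gata-1 and Tal1 complex, averaged 2198 at 7 h and 1133 at 0 h (0.94, and 0.85 on a second called probe set). Mafk, a small Maf partner of Nfe2 and of Bach1, averaged 469 at 7 h and 197 at 0 h (1.24). Bach1, a repressor that heme removes from DNA, had 266, 177 and 159 at 7 h, against 57.6, 51.3 and 5.2 at 0 h (2.16, adjusted p = 0.000948); 1 array at 0 h was at 5.2, and its second probe set was not called (0.92, adjusted p = 0.344). Klf13 (1.20) was the remaining call above 0 h and Tal1, a central factor of blood formation, the call below it (-1.05, adjusted p = 0.0208), both outside the naming rule and given to complete the count. Leaving out 0 h A, 0 h B, 7 h B or 7 h C ended the Tal1 call (-0.90 to -1.03, adjusted p from 0.0716 to 0.107), and then no factor of the list was called lower. Ldb1, a partner of Lmo2, was not called (0.39, adjusted p = 0.476). With 64 or 1 added to the signals in place of 16, the change of Bach1 was 1.39 or 2.86. Nfe2 averaged 919.9 at 7 h and 942 at 0 h and was not called (-0.07, adjusted p = 0.932).

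Of 10 measured genes of heme synthesis and its mitochondrial transport, 5 were called, all higher, and the median was 0.74. Alas2, the first and rate-limiting enzyme of the red cell pathway, had 661, 415 and 283 at 7 h, against 124, 107 and 93.9 at 0 h (1.87, SE 0.22, adjusted p = 2.55e-05). The lowest 7 h array was more than 2 times the highest at 0 h, while the 7 h arrays differed among themselves. Tmem14c, which carries the porphyrin precursor in mitochondria, had 4423, 5638.5 and 4569 at 7 h, against 1669, 1512.5 and 1479.7 at 0 h (1.57, adjusted p = 4.3e-08), and Abcb10, a mitochondrial transporter, 101, 132 and 112.5 at 7 h, against 26.4, 11.4 and 37.5 at 0 h (1.69, adjusted p = 0.000460). Tmem14c also gained more deposited signal than any other named gene. Ppox (1.23, adjusted p = 0.00357) and Uros (0.83, adjusted p = 0.00163), which act in the later and middle steps, were called too; a second, very dim Ppox probe set was not (0.02, adjusted p = 0.994), and with the 6 compared arrays alone Ppox was at an adjusted p of 0.0522. Abcb10 stood at 0.997 with 64 added. Alad and Urod were not called (0.66, adjusted p = 0.0692, and 0.53, adjusted p = 0.0536), but were with the replicate letter as a block (adjusted p = 0.0215 and 0.0158), as was Urod without array 7 h C (0.69, adjusted p = 0.0155). Fech, the last enzyme, which inserts iron, averaged 30.0 at 7 h and 33.6 at 0 h (-0.16) and Cpox 986.5 at 7 h and 1345.5 at 0 h (-0.36); neither was called.

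Of 5 measured globin genes 1 was called, and the median was 0.04. Hbb-b2, an adult beta globin, had 2553, 2734 and 1788.5 at 7 h, against 1747, 1399 and 1159.6 at 0 h (0.70, adjusted p = 0.0278). Its lowest 7 h array was close to the highest at 0 h, and the call was lost without array 0 h B, 0 h C, 7 h A or 7 h B (0.55 to 0.68, adjusted p from 0.0899 to 0.161). Hba-a1, the adult alpha globin, had 5272, 7399.7 and 4547.5 at 7 h, against 7034, 5307 and 5842 at 0 h, overlapping and not called (-0.09). The embryonic globins averaged 25.5 (Hba-x), 29.8 (Hbb-y) and 80.5 (Hbb-bh1) at 7 h, against 29.9, 23.4 and 76.5 at 0 h. In iron and heme handling, 1 of 11 was called higher (Hebp1) and 1 lower, with a median of 0.03. Tfr2, the second transferrin receptor, was the lower one, with 216, 189 and 189.9 at 7 h, against 384, 456 and 545 at 0 h (-1.14, adjusted p = 0.000133). Tfrc, the main transferrin receptor, averaged 2157.5 at 7 h and 1239.8 at 0 h and was not called (0.76, adjusted p = 0.255).

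In the red cell membrane and its skeleton, 6 of 13 measured genes were called, all higher, while the median of the list was -0.03. Dmtn, which encodes the actin-bundling dematin, had 298, 277 and 205 at 7 h, against 26.6, 30.3 and 24 at 0 h (2.65, SE 0.21, adjusted p = 1.54e-07). Ache, an esterase anchored on the outside of red cells, had 324, 326 and 166 at 7 h, against 20.7, 9.8 and 51.8 at 0 h (2.77, SE 0.31, adjusted p = 1.14e-05). Both were dim on every 0 h array, and the change of Ache was 1.84 with 64 added in place of 16. Tspan33, a tetraspanin of erythroid precursors, had 903, 902 and 725 at 7 h, against 345, 341 and 369.6 at 0 h (1.27, adjusted p = 2.08e-06), and Mpp1, the p55 protein, 1916, 2077 and 1846 at 7 h, against 838, 881 and 948 at 0 h (1.12, adjusted p = 3.3e-06). These genes were already expressed at 0 h and their arrays lay in narrow ranges at each time. Add1, the alpha chain of adducin, averaged 937 at 7 h and 496 at 0 h (0.96), and Ank1, the red cell ankyrin, a link between band 3 and spectrin, 1746 at 7 h and 967 at 0 h (0.85, with 1 of its other probe sets called at 1.18 and 1 not, at 0.58). With median scaling Ank1 was not called (adjusted p = 0.0659). Slc4a1, which encodes band 3 itself, averaged 40.8 at 7 h and 66.7 at 0 h and was not called (-0.60, adjusted p = 0.559). Rhag, the Rh-associated glycoprotein, averaged 2062 at 7 h and 2003 at 0 h (-0.04). Bsg, which chaperones lactate carriers, had a change of -0.75 (adjusted p = 0.231) that was called without array 7 h C (-1.14, adjusted p = 0.0298). Of 13 red cell enzymes 2 were called. Hagh, which completes removal of methylglyoxal, was called higher (1.07, adjusted p = 5e-05) and Gsr, glutathione reductase, lower (-0.79, adjusted p = 0.0430). For Gsr the arrays overlapped, with 544 on 7 h C and 533.5 on 0 h A, and its call was lost without array 0 h B, 0 h C, 7 h A or 7 h B (adjusted p from 0.116 to 0.223).

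**Figure D3:**
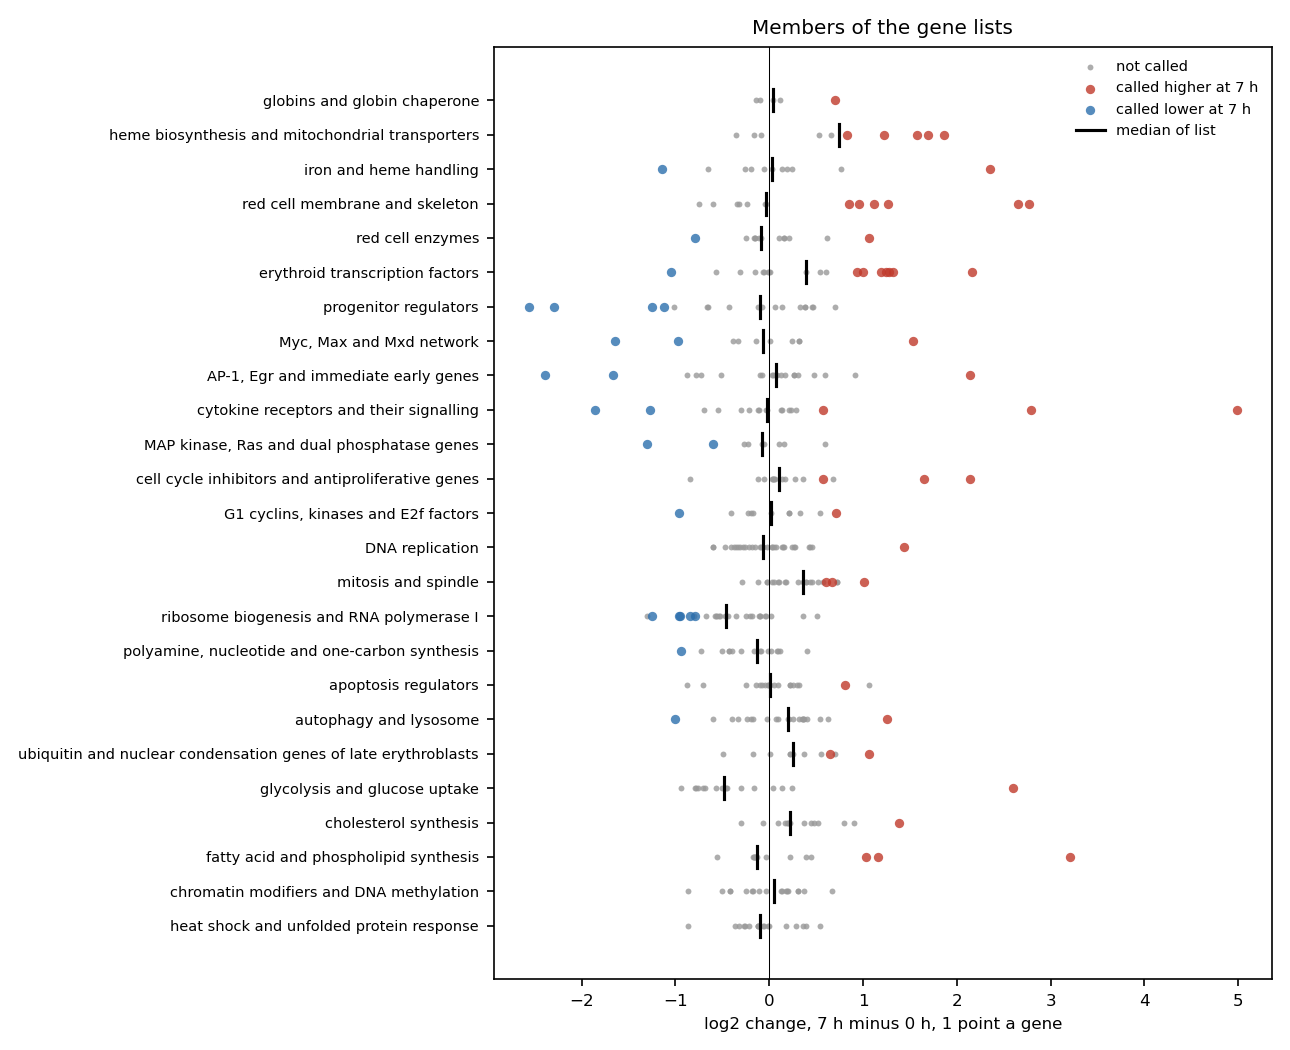
Each row is a gene list and each point the log2 change, 7 h minus 0 h, of 1 gene by its brightest probe set; black bars mark list medians. Red points were called higher and blue points lower at 7 h; the heme list has 5 red points of 10 and a median of 0.74, and the list of ribosome biogenesis 5 blue points of 28 and a median of -0.46.

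Cytokine receptors and their signalling genes split. Of 18, 3 were called higher (Csf2rb, Csf2rb2 and Jak1) and 2 lower, with a median of -0.03. Il4ra, the interleukin 4 receptor chain, had 23.4, 13.6 and 53.5 at 7 h, against 138, 138 and 151 at 0 h (-1.85, adjusted p = 0.00578), and Ptpn6, the phosphatase Shp-1 that damps receptor signals, 59.8, 74 and 75 at 7 h, against 168, 184.5 and 233 at 0 h (-1.27, adjusted p = 0.00449). Both had separate arrays, but a second, dim Il4ra probe set was not called (0.03, adjusted p = 0.988). The size of the Il4ra change was -1.13 with 64 added and -2.41 with 1 added. Jak1, a kinase of cytokine receptors, was barely called (0.57, adjusted p = 0.0490), and not with the replicate letter as a block (adjusted p = 0.0574) or without array 0 h B, 0 h C, 7 h A or 7 h C (adjusted p from 0.138 to 0.221). Epor, the erythropoietin receptor, had 753, 710.5 and 590 at 7 h, against 583, 569 and 602 at 0 h and was not called (0.23, adjusted p = 0.369). The partners of Csf2rb were low: Il3ra, the interleukin 3 receptor alpha chain, averaged 71.5 at 7 h and 77.4 at 0 h, and Csf2ra, that of GM-CSF, 40.7 at 7 h and 33.0 at 0 h, neither called. Of 9 measured genes of Ras and MAP kinase signalling 2 were called, both lower. Rasa1, which switches Ras off, had 77.8, 54.1 and 65.3 at 7 h, against 204, 159 and 198 at 0 h (-1.31, adjusted p = 0.00122). Map2k3, an activator of p38, stood at -0.60 (adjusted p = 0.00949; 0.0652 without array 7 h C), and a second probe set was called at -0.73.

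Of 22 immediate early and AP-1 genes, Btg2 was called higher and Nab2 and Ier2 lower. Egr1 had 373, 574 and 793 at 7 h, against 237, 759 and 792 at 0 h (0.08), a spread within each time wider than the difference. In the Myc network, 1 of 10 was called higher and 2 lower. Mxd1, which competes with Myc for Max, had 67.5, 25.8 and 40.5 at 7 h, against 3.6, 4.1 and 3.4 at 0 h (1.53, adjusted p = 0.00703). All 0 h arrays were at very low signals, so the size rests on the added 16: with 1 added it was 3.11, and with 64 added 0.65 and not called (adjusted p = 0.0579). Myc had 152, 93.3 and 115 at 7 h, against 251, 252 and 248 at 0 h, with separate arrays (-0.97, adjusted p = 0.0459). Its call did not hold with the replicate letter as a block (adjusted p = 0.0561) or without any 1 of the 6 arrays but 7 h A (adjusted p from 0.119 to 0.199). Mnt, another Max partner that opposes Myc, had 35.8, 31.8 and 11.2 at 7 h, against 113, 116 and 111 at 0 h (-1.64, adjusted p = 0.0105; -1.38 and 0.0684 without array 7 h C). Its change was -0.97 with 64 added and -2.19 with 1 added.

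Genes that brake the cell cycle and genes that drive it were both among the rises. Of 16 inhibitors and antiproliferative genes 3 were called, all higher: Btg2, the stress response gene Gadd45g with 230.2, 336 and 380.5 at 7 h, against 72.9, 68.3 and 136 at 0 h (1.65, adjusted p = 0.000262), and the Cdk4 and Cdk6 inhibitor Cdkn2c (0.58, adjusted p = 0.0180). The arrays of Gadd45g were apart. Leaving out 0 h A, 0 h B or 7 h A ended the Cdkn2c call (adjusted p from 0.0530 to 0.102). Of 11 G1 cyclins, kinases and E2f factors 1 was called higher and 1 lower. Ccnd2 (cyclin D2) had 324, 396 and 370.2 at 7 h, against 837, 656 and 637 at 0 h (-0.96, adjusted p = 0.00379). Ccne1 (cyclin E1) was called higher (0.72, adjusted p = 0.0473), but not with the replicate letter as a block (adjusted p = 0.0595) or without any 1 array other than 7 h C (adjusted p from 0.0848 to 0.233). Ccnd3 (cyclin D3), a D cyclin of erythroblasts, had 1003, 1943 and 1282 at 7 h, against 849.8, 957 and 968.5 at 0 h; it was not called (0.54, adjusted p = 0.1003), except without array 7 h A (0.73, adjusted p = 0.0237).

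Of 32 replication genes only Cdc6 was called. Cdc6, which loads the replicative helicase onto origins, had 1175, 1385 and 1339.7 at 7 h, against 457, 529.8 and 497 at 0 h (1.44, SE 0.11, adjusted p = 1.54e-07), while the list's median was -0.07. Its arrays were in narrow, separate ranges. In contrast Mcm5, a subunit of that helicase, had a change of -0.37 (adjusted p = 0.516), and Rrm1, of ribonucleotide reductase, 0.14 (adjusted p = 0.910). Of 23 genes of mitosis 3 were called, all higher, 19 had a change above 0 and the median was 0.36. Cenpa, the centromeric histone, had 462, 531 and 511 at 7 h, against 266, 243 and 236 at 0 h (1.01, adjusted p = 0.00267). Plk1, a kinase of mitotic entry, stood at 0.60 (adjusted p = 0.0118), with 0.0688 when 0 h A and 0.0644 when 7 h B was left out. The Plk1 call rests on 1 of 3 probe sets, and those not called reached down to -0.18. Ccna2 (cyclin A2) averaged 1331 at 7 h and 848 at 0 h (0.67, adjusted p = 0.0169), a call lost without any 1 array but 7 h A (adjusted p from 0.0530 to 0.0694). The number of mitosis genes called was 1 to 3 with 1 array left out, 1 with median scaling and 4 with the replicate letter as a block.

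On the side of growth, 5 of 28 genes of ribosome biogenesis were called, all lower, and 25 of 28 had a change below 0, with a median of -0.46. Rrp1b, a factor of ribosomal RNA processing, had 165, 129.7 and 93.7 at 7 h, against 328, 353 and 297 at 0 h (-1.25, adjusted p = 0.00171), and Nop2, which methylates ribosomal RNA, 414, 401 and 284 at 7 h, against 709.7, 757 and 641 at 0 h (-0.96, adjusted p = 0.00589). No array of one time reached those of the other in either gene. Ddx21, a nucleolar RNA helicase (-0.95), Ubtf, the upstream factor of RNA polymerase I (-0.85), and Nop58, a core protein of box C/D particles (-0.79), lost their calls without several single arrays. For Ddx21 these were 0 h A, 0 h B or 7 h B (adjusted p from 0.0501 to 0.0527), for Ubtf 0 h B, 0 h C or 7 h C (0.107 to 0.143) and for Nop58 any but 7 h A (0.0872 to 0.115). Ncl, the abundant nucleolin, had 5824, 6336 and 6128 at 7 h, against 7234, 8810.1 and 9255 at 0 h and was not called (-0.44, adjusted p = 0.104), except without array 0 h A (-0.57, adjusted p = 0.0408). With 1 array left out the list had 2 to 6 genes lower, and 3 with median scaling. Gart, of purine synthesis, was the single call of 16 in polyamine and nucleotide synthesis (-0.94, adjusted p = 0.0164), lost without array 0 h B, 0 h C, 7 h B or 7 h C (adjusted p from 0.0580 to 0.0734).

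Of 15 genes of fatty acid and phospholipid synthesis 3 were called, all higher, with a median of -0.13: Ptdss2, the phosphatidate phosphatase Lpin1 with 242, 264 and 265 at 7 h, against 146, 118 and 93.1 at 0 h (1.03, adjusted p = 0.00171), and the dim cholinephosphotransferase Chpt1 (1.16, adjusted p = 0.0320). The arrays of Lpin1 were separate. Chpt1 was not called without array 0 h A, 0 h C, 7 h A or 7 h C (adjusted p from 0.0841 to 0.142). Of 15 cholesterol synthesis genes only Lss, which closes the sterol rings, was called, with 473, 618 and 389.9 at 7 h, against 169, 138 and 261 at 0 h (1.39, adjusted p = 0.00192); 13 of the 15 were above 0 with a median of 0.22. Plin2, a coat protein of lipid droplets, had 3244, 4680.1 and 3739 at 7 h, against 1539, 1359 and 1682 at 0 h (1.32, adjusted p = 6.34e-06). In glycolysis Pfkm was the single call of 16 while 12 were below 0 and the median was -0.48. Its sister forms stood on the other side and were not called: Pfkl, of liver, averaged 955 at 7 h and 1485 at 0 h (-0.79, with adjusted p = 0.468), and Pfkp, of platelets, 200.1 at 7 h and 375 at 0 h (-0.94, adjusted p = 0.268).

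Ctsb, the lysosomal protease cathepsin B, had 873, 901 and 687 at 7 h, against 312, 311 and 419 at 0 h (1.26, adjusted p = 1.47e-05), and Ctse, cathepsin E, 1005, 800.5 and 1038 at 7 h, against 1791, 1699.7 and 2045.5 at 0 h (-1.0002, adjusted p = 0.00309). On these probe sets they changed in opposite directions with separate arrays, and they were the 2 calls of 22 in autophagy and lysosome. Each call rests on 1 probe set, out of 4 for Ctsb and 3 for Ctse. The probe sets not called reached down to -0.03 for Ctsb and up to 0.67 for Ctse. Of 11 ubiquitin and nuclear condensation genes of late erythroblasts, Ube2l6 (1.06, adjusted p = 0.00293) and Ncoa4, a ferritin receptor of autophagy (0.65, adjusted p = 0.00397; 0.0576 with median scaling), were called higher. Apaf1, of the apoptosome, was the single call of 19 apoptosis genes (0.81, adjusted p = 0.00742; 0.0523 without array 0 h C). A single call in a list of 16 to 32 genes is no more than about the share of all genes called (5.32%). In limma none of 18 chromatin modifiers, 18 heat shock genes, 16 interferon and MHC class I genes or 10 estrogen receptor targets was called, and at an unadjusted p below 0.05 there were 3, 2, 3 and 1. With the replicate letter as a block 1 gene each way was called among the chromatin modifiers (Suz12 0.67, Uhrf1 -0.87) and among the heat shock genes (Ddit3 0.55, Calr -0.87), named after their values were seen. Suz12 and Calr were also called without array 0 h B (adjusted p = 0.0256 and 0.0487) and Ddit3 without 0 h C (0.0285). Leaving out 7 h A gave 1 lower interferon and MHC gene, B2m (-0.78, adjusted p = 0.0396), and leaving out 0 h B 1 lower estrogen target, Rara (-1.12, adjusted p = 0.00278). The estrogen target list had a median of -0.16, and Ctsd, a target in breast cells, had 925, 1029 and 766 at 7 h, against 849, 1229.7 and 986 at 0 h (-0.19, adjusted p = 0.682).

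Most markers of other blood and stromal cells were low at both times, but not all. Of 63 measured, 47 had means below 50 at both 7 h and 0 h, none of their values was listed at 0, 1 was called higher and 1 lower. The summed signals per array overlapped between 7 h and 0 h for megakaryocyte markers (160 to 260.1, against 222 to 237), mast cell markers (169.5 to 237, against 181 to 231.5) and neutrophil and macrophage markers (646 to 800, against 740 to 891). For lymphocyte markers they were 443 to 475, against 389 to 465.5, and for fibroblast and stromal markers 752 to 887, against 674 to 768, where Col1a2 had the highest mean (499). At an unadjusted p below 0.05 limma had 3 of 20 neutrophil and macrophage, 0 of 8 megakaryocyte, 0 of 10 mast cell, 0 of 13 lymphocyte and 1 of 12 stromal markers. The lower call was Clec4d, a lectin of myeloid cells, with 6.2, 24.8 and 19.8 at 7 h, against 61.4, 124 and 89.2 at 0 h (-1.65, adjusted p = 0.00203). The higher one was Fcgr3, an antibody receptor, with 38.6, 36.8 and 44.6 at 7 h, against 14.5, 17.6 and 9.9 at 0 h (0.89, adjusted p = 0.0273); leaving out 0 h A, 0 h C, 7 h B or 7 h C ended the call (adjusted p from 0.0660 to 0.121). With 64 or 1 added, Clec4d stood at -0.89 or -2.44 and Fcgr3 at 0.41 or 1.47. The part of other cells in the changes was not tested. In RNA from whole cultures, fewer cells of a type and less RNA per cell cannot be told apart.

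The 3 h arrays lie between and give a first view of when within the 7 h the changes came. Both steps share arrays with the main comparison, so values are given side by side only. The number of calls from 3 h to 7 h depended strongly on the processing, as given at the end of this paragraph. Between 0 h and 3 h, 132 probe sets were called (1.06%), 94 higher (0.757%) and 38 lower (0.306%) at 3 h. Between 3 h and 7 h, also 132 probe sets were called (1.06%), 91 higher (0.733%) and 41 lower (0.330%) at 7 h. Ache had 324, 326 and 166 at 7 h, against 14.4, 22.8 and 37 at 3 h (2.71, adjusted p = 0.000148), and Dmtn 298, 277 and 205 at 7 h, against 34.8, 30.4 and 35.7 at 3 h (2.38, adjusted p = 6.44e-06). The changes by 3 h were 0.06 and 0.27 and not called (adjusted p = 0.996 and 0.873). Ptdss2 had 835, 1002 and 921 at 7 h, against 241, 264 and 214 at 3 h (1.94), after a change of 1.26 by 3 h. Gata2, Lyl1, Il4ra and Uhrf1bp1 had 7 h minus 3 h values of -0.36, -0.04, 0.14 and 0.02 and were not called there (adjusted p of at least 0.681). Tspan4 (-1.83), Clec4d (-1.57), Fut8 (-1.06) and Rcc1, which loads the GTPase Ran with GTP (-1.14), fell between 3 h and 7 h. Some genes were low at 3 h. Jund, an AP-1 factor, had 1128, 649.9 and 1204 at 7 h and 378, 234 and 231 at 3 h, against 1712.5, 1028 and 1358 at 0 h, and Pim1, a kinase gene induced by cytokines, 2144.5, 1458 and 1243 at 7 h and 665, 520.2 and 538.5 at 3 h, against 1766, 1252.5 and 1707 at 0 h. For both, the 3 h arrays were below all others, while 7 h overlapped 0 h. Epor followed, with 368, 357 and 395 at 3 h (7 h minus 3 h 0.90, adjusted p = 0.000452). Cbfa2t3 stood at 141, 134 and 135 at 7 h, against 40.2, 65.2 and 65.9 at 3 h (1.03, adjusted p = 0.00635), still below 0 h. With median scaling 21 probe sets were higher and 22 lower between 3 h and 7 h, and with 1 array left out 52 to 80 were called in all. With the compared arrays alone only 8 were called, and without the variance trend 63.

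Whether the genes changed by 7 h went on in the same direction could be read from 30 h against 14 h, which uses none of the 7 h or 0 h arrays. That later comparison called 1808 of all probe sets (14.6%), 798 higher (6.42%) and 1010 lower (8.13%). Of the 308 higher at 7 h, 85 (27.6%) were higher again and 39 (12.7%) lower, with a median later change of 0.17. Of the 210 lower at 7 h, 72 (34.3%) were lower again and 26 (12.4%) higher, with a median of -0.24. Among the 11904 not called at 7 h the shares were 5.77% and 7.55%. The called sets were thus called later more often in both directions, but they are also brighter, as given above. A probe set of small shared spread is also called more easily in both comparisons, so these shares are not an independent reading.

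**Figure D4:**
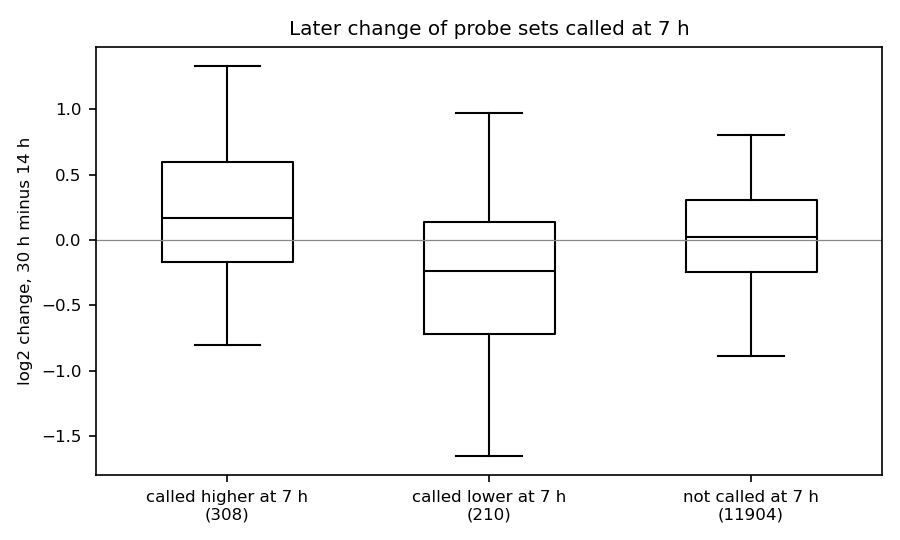
Boxes give the log2 change, 30 h minus 14 h, of probe sets called higher at 7 h, called lower at 7 h and not called at 7 h, with the number of probe sets below each. Lines in the boxes are medians (0.17, -0.24 and 0.03), box edges quartiles and whiskers the 5th and 95th percentiles; the boxes overlap.

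Genes that continued included Alas2 (30 h minus 14 h 2.39), Csf2rb2 (1.64), Rogdi (1.33), Bach1 (1.66) and Lyl1 (-1.54). Dmtn (0.03), Ptdss2 (-0.05) and Gata2 (-0.25) were not called later. Other genes higher at 7 h were later lower, several of them genes of the cell cycle. Cdc6 averaged 1299.9 at 7 h and 494 at 0 h, and then 1667 at 14 h and 185 at 30 h (30 h minus 14 h -3.02, adjusted p = 3.99e-12). Plk1 (-2.17), the deoxycytidine kinase gene Dck (-1.69), Septin4 (-2.59) and the deadenylase gene Noct (-1.74) took the same turn. Their 7 h rises were each called on 1 probe set only, out of 3 for Plk1 and Noct and 2 for Dck and Septin4. Probe sets not called reached down to -0.18 for Plk1, 0.17 for Noct, 0.08 for Dck and -0.23 for Septin4 at 7 h against 0 h. The 7 h call of Dck was lost without array 0 h C (adjusted p = 0.0513) and that of Septin4 without 0 h A (adjusted p = 0.0559). Of the mitosis list 22 of 23 and of the replication list 30 of 32 were called lower at 30 h than at 14 h, against 9.59% of all genes. Some erythroid factors had their highest mean at 7 h: Gfi1b averaged 1674.5 then, against 684 at 0 h, and stood at 788 by 30 h (30 h minus 14 h -0.57). Lmo2 averaged 2198 at 7 h, against 1133 at 0 h, and reached 965 by 30 h (30 h minus 14 h -1.07). In the other direction, Mnt (1.34), Lasp1 (1.14), Bri3 (1.04) and the MHC class I gene H2-K2 (2.40), all lower at 7 h, were higher at 30 h than at 14 h. Leaving out 7 h B ended the 7 h call of Bri3 (adjusted p = 0.0522), 0 h B, 0 h C or 7 h A that of H2-K2 (0.0745 to 0.139), and 7 h C that of Mnt (0.0684).

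**Figure D5:**
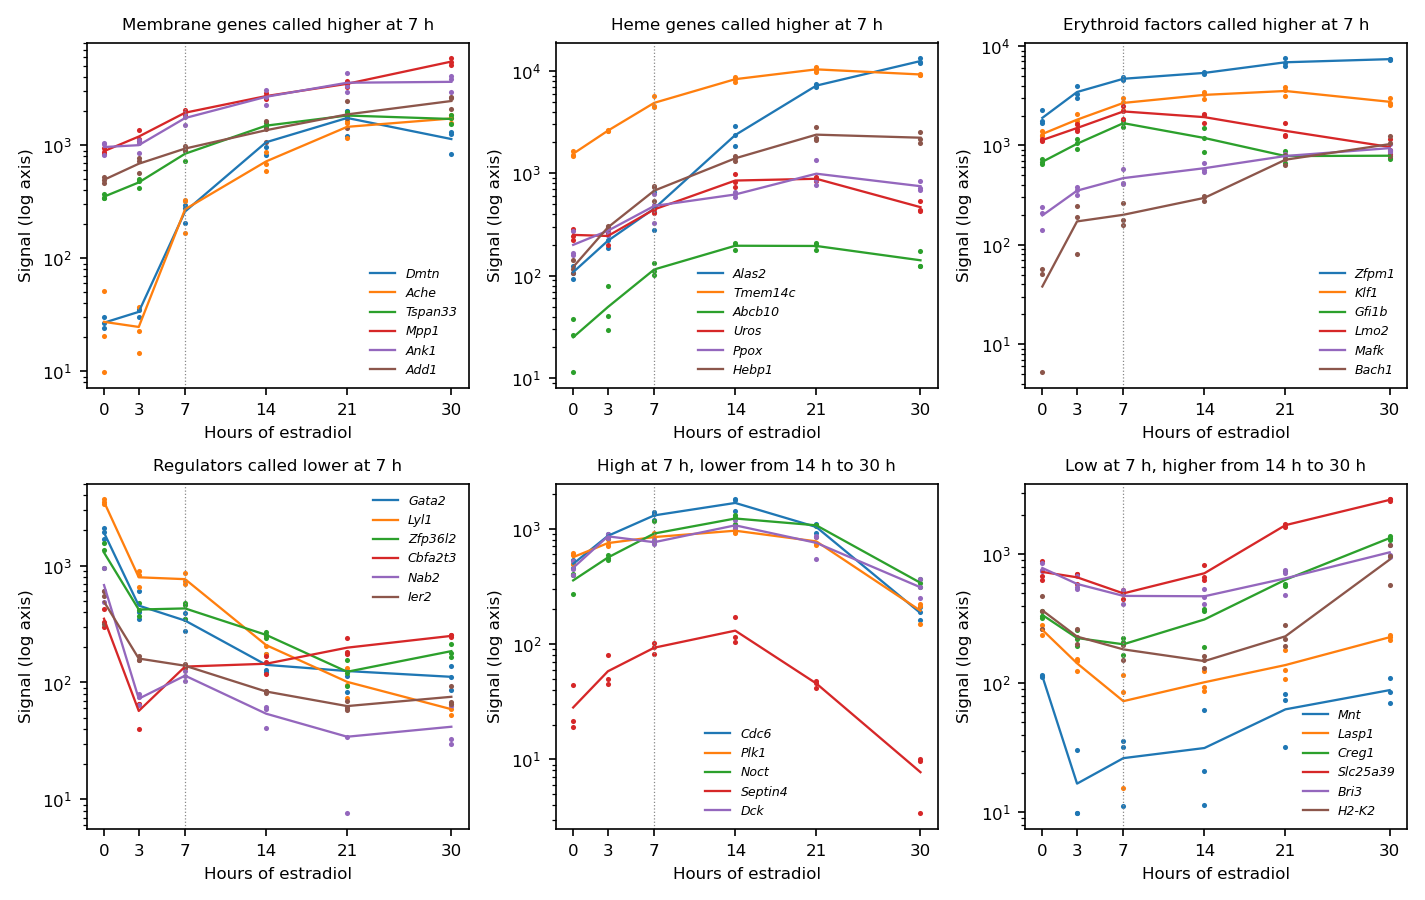
Signal, on a log axis, of genes called at 7 h over the 6 times from 0 h to 30 h of estradiol; points are single arrays, lines join the means of 3 and the dotted line marks 7 h. Dmtn and Ache are dim at 0 h and 3 h and high from 7 h, Gata2 and Lyl1 are low by 3 h, and Cdc6 averages 1299.9 at 7 h and 185 at 30 h.

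By deposited signal rather than by ratio, the largest gains at 7 h were those of Tmem14c, Zfpm1 and Plin2, given above. Tkt, transketolase of the pentose phosphate pathway and next in gain, had 5126, 6503 and 5922.5 at 7 h, against 3255, 4032 and 4147 at 0 h (0.56, adjusted p = 0.00705), and Nomo1, a protein of the endoplasmic reticulum, 3389, 4098 and 3441 at 7 h, against 2184, 2406.5 and 1979 at 0 h (0.72, adjusted p = 0.00232). In both, the groups were apart by less than 2-fold, and with median scaling Tkt was not called (adjusted p = 0.1045). Among the losses, Chd4, the remodelling ATPase of the NuRD complex, had 2335, 3471.5 and 3254 at 7 h, against 4081, 5297 and 4709 at 0 h (-0.69, adjusted p = 0.00466), and Vamp8, a vesicle fusion protein, 1374, 2279 and 1414 at 7 h, against 2785, 3206.5 and 2692 at 0 h (-0.84, adjusted p = 0.00497). Their arrays did not overlap either, but with median scaling neither was called (adjusted p = 0.2125 for Chd4 and 0.1005 for Vamp8), and both probe sets are of the kind that may read related transcripts. Mtm1, the lipid phosphatase myotubularin, had 2337, 2034 and 1819.9 at 7 h, against 4046, 4361 and 3839.7 at 0 h on 1 probe set (-0.9994, adjusted p = 0.00293), while a dimmer one was not called (-0.15, adjusted p = 0.854), so which transcript fell is uncertain. Of 141 called genes with several probe sets, 21 had at least 2 called and none had calls in opposite directions. Genes with 1 called probe set could not show opposite calls. In 18 of the 141 the call was only on a probe set dimmer than the one that stands for the gene.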

How the data were processed

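Total RNA of G1E-ER4 cells was read on Affymetrix MG-U74Av2 arrays, 1 array per sample. The deposited values are linear intensities, 1 signal per probe set, which the authors had brought to a common trimmed mean, as the values show; the summary algorithm, scaling target and detection calls are not given in the sources used here. Of 12488 probe sets, 66 are controls; of the 12422 tested, 10833 have 1 gene symbol in the platform annotation, 396 several and 1193 none, and 10817 were found in RefSeq.

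From these, log2(signal + 16) was taken and quantile-normalized, and limma 3.58.1 in R 4.3.3 fitted 1 mean per time over all 18 arrays (12 residual degrees of freedom, variance trend on intensity). Adjusted p is Benjamini-Hochberg over the 12422 probe sets of a comparison, called below 0.05; changes are 7 h minus 0 h unless stated, and the added 16 understates those of dim genes. The p-values rest on a spread shared across probe sets: an exact permutation test of 3 arrays against 3 cannot go below 0.1. Signals are those deposited.

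For each gene the brightest probe set on average stands for it. Named were the 16 largest rises and falls with arrays apart, Gata1 and Gata2, the 4 largest changes each way from 3 h, the 6 largest later reversals and signal differences each way, and from each of 32 gene lists up to 6 called members and the 2 brightest not called. The members, lists and rule were chosen with earlier results of these data known. Klf13, Tal1, Ldb1, Myb, Kit, Spi1, Fech, Cpox, the embryonic globins and Tfrc fall outside the rule and were added after their values were seen. The same holds for Slc4a1, Il3ra, Csf2ra, Pfkl, Pfkp, Suz12, Uhrf1, Ddit3, Calr, Bid and Rara.

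Deviations of arrays with the same letter from the means of 7 h and 0 h correlated at 0.266 (A), 0.123 (B) and 0.188 (C) over the brighter probe sets. Those of arrays with different letters correlated at -0.192 to 0.011. Over all probe sets the same letters gave 0.134, 0.075 and 0.079, and different letters -0.081 to 0.004. The main fit did not use the letters, so its calls and p-values are unpaired, and an alternative took the letter as a block. The labels do not say what a letter shares. On simulated arrays for 7 h against 0 h with 12422 probe sets, 59% of 100 changes of log2 1 and 94% of 100 of log2 2 were recovered, and 11 unchanged probe sets were called. The changes were placed only in probe sets above the median level at 0 h, so recovery among dim ones was not tested. The simulated noise was independent between arrays, with no array or letter effects. Alternatives changed the normalization, added constant, variance model, filter on dim probe sets, block and arrays used.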

Additional observations from a re-analysis of the deposited data

How the results depend on the processing

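For 7 h against 0 h, 518 probe sets were called, and 320 with arrays scaled to a common median, 341 with the 6 compared arrays alone, 605 with the replicate letter as a block (348 higher, 257 lower) and 352 to 441 with 1 array left out. The smaller fit has fewer residual degrees of freedom; for the scaling the cause was not tested. For 7 h against 3 h, 132 were called, and 43 with a common median, 63 without the variance trend, 8 with the compared arrays alone, 155 with the replicate block and 52 to 80 with 1 array left out. The share higher was 48.8% with a common median, against 68.9%. Over the brighter probe sets, deviations at these times correlated at 0.079 (A), 0.138 (B) and 0.078 (C) for the same letter. For different letters they correlated at -0.119 to 0.029. For 30 h against 14 h 1374 to 1809 were called with 1 array left out and 1906 with the replicate block, against 1808. Of 97 named genes called at 7 h against 0 h, 61 were called under all 15 alternatives, 36 lost the call under at least 1 and 0 changed direction. A common median ended 22 of these calls (Ank1, Bri3, Ccna2, Ccne1, Cdkn2c, Chd4, Creg1, D17H6S56E-5, Dck, Gart, Gsr, H2-K2, Hbb-b2, Jak1, Ncoa4, Nop58, Plk1, Slc25a39, Tkt, Trim28, Ubtf and Vamp8, adjusted p from 0.0537 to 0.341), the compared arrays alone 21, no variance trend 10, an added 1 in place of 16 5, no quantile normalization 4, an added 64 3, and the block 3 (Myc, Jak1 and Ccne1). The added constant moved the log2 change of very dim genes most, as given beside them; that of Chpt1 was 0.54 with 64 and 1.94 with 1, and that of Septin4 0.76 with 64. Having 3 arrays a time limits what dim probe sets can show, and no array of untreated cells at 7 h was analysed here.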
